A study of Mus musculus with 4 samples.

Results

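Claudins and the proteins that assemble with them form the tight junction, the seal near the apical end of epithelial cells. The 40 genes described here were chosen by name from the 22869 gene symbols of the deposited tables. They are the 25 numbered claudins, 3 proteins of the occludin (MARVEL) family, 5 cytoplasmic scaffold genes, 4 adhesion proteins of the immunoglobulin family and 3 polarity genes. Each gene was read from the RefSeq transcript with the highest mean count. Of the 40 genes, 28 held enough counts to be tested and 12 did not.

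RNA was sequenced from primary mouse pancreatic ductal cells of C57BL/6 strain, taken from adult littermates that had not been induced. The control libraries (n = 2) carried floxed Hhex alleles (HhexL/L) and no Cre. The libraries labelled knockout (n = 2) carried the same floxed alleles with Sox9CreER (Sox9CreERT2 in the series' text), a Cre recombinase that tamoxifen activates and that the Sox9 promoter drives, so that cells without Sox9 promoter activity would keep Hhex. Both groups received 500 nM 4-hydroxytamoxifen in culture for 4 days. No group had the Cre without the floxed alleles, so an effect of the Cre and an effect of Hhex loss cannot be told apart. Hhex is a homeobox transcription factor of liver and pancreas. The comparison asks which tight junction transcripts differ when the gene is targeted in ductal cells.

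Claudins are membrane proteins whose outer loops join neighbouring cells. Some, such as claudin 4, tighten the barrier, and others, such as claudin 2, form pores for cations and water. In pancreatic ducts the junctions keep enzymes and bicarbonate-rich fluid in the lumen. Occludin and tricellulin shape the strands, the zonula occludens proteins and cingulins link them to actin, and the PAR and Crumbs proteins set where on the cell the junction forms.

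The targeted gene came first as a check of the labels. In CPM, the count scaled to library size with TMM factors, Hhex stood at 24.8 and 17.7 in control replicates 1 and 2 and at 23.6 and 39.0 in replicates 1 and 2 of the libraries labelled knockout. Values below keep this order. The groups overlapped, and the log2 fold change was 0.55 ± 0.27 (SE; edgeR adjusted p = 0.742). It was 0.84 without labelled knockout replicate 1, so that a single library stood for that group. Hhex was thus not lower in the group labelled knockout, and the labels do not say which part of the gene is floxed. That group is called the labelled knockouts throughout. The deposited counts summed to between 25257778 and 39582625 per library. Xist, which is expressed in female cells, stood at 304 CPM in labelled knockout replicate 2 and at 1.75 CPM or less in the other 3 libraries. The labelled knockout replicates therefore differed in Xist. The part of sex in differences between them, or between the groups, was not tested.

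Markers of ductal epithelium were abundant, and none of the 11 listed passed edgeR over all transcripts. The 11 summed to between 12897 and 16765.5 CPM. Krt8, Krt18, Epcam and Cdh1 stood between 429.6 and 9242 CPM in every library. Sox9, a transcription factor of ductal cells, read 18.0 and 21.4 CPM for controls and 52.3 and 44.3 CPM for labelled knockouts (edgeR adjusted p = 0.0521). Muc1, an apical mucin, read 22.7 and 19.2 CPM for controls and 1.79 and 7.35 CPM for labelled knockouts (edgeR adjusted p = 0.303). Mesothelial markers summed to 1586 and 2014 CPM for controls and 3140 and 4489 CPM for labelled knockouts, nearly all of it Msln. Fibroblast markers summed to between 3.40 and 11.4 CPM over 8 genes and acinar markers to between 1.99 and 3.93 CPM over 9 genes, with Amy2a5 at 0 in every library. Macrophage and leukocyte markers summed to between 127 and 213 CPM, most of it Cd14, and endocrine markers to between 2.43 and 5.03 CPM. Schwann and glial markers, mostly Mbp, summed to 57.5 and 66.7 CPM for controls and 89.9 and 78.4 CPM for labelled knockouts. Hepatocyte markers, mostly Apob, summed to 7.51 and 6.97 CPM for controls and 1.31 and 2.61 CPM for labelled knockouts. The part of these differences in the results below was not tested.

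None of the 28 tested genes passed an edgeR adjusted p of 0.05, where 0.177% of all 20949 transcripts did (27 higher, 0.129%, and 10 lower, 0.0477%). With library totals or upper-quartile factors in place of TMM, 0 higher and 5 lower transcripts passed. The smallest adjusted p among them was 0.218, for Jam2. At an unadjusted p under 0.05, which 7.47% of all transcripts reached, there were 4 of the 28, Jam2, Cgnl1 and Tjp1 higher and Cldn4 lower. DESeq2 and the edgeR exact test each called 1 of them, Jam2, where 303 of 28199 and 270 of 20949 transcripts passed. Groups did not overlap for 8 of the 28, 4 higher and 4 lower, against 36.1% of all transcripts tested. The difference exceeded both gaps between same-group libraries for 6 of the 28, against 24.4% of all transcripts. Both shares are below those over all transcripts. The log2 fold change was positive for 11 and negative for 17, with a median of -0.07 against -0.01 over all transcripts, and this median ran from -0.13 to 0.03 across the alternatives that kept every library. Among the 13 claudins tested it was positive for 3 and negative for 10, with a median of -0.28. The claudin median was -0.022 without labelled knockout replicate 1 and -0.068 without control replicate 1, where 8 of the 13 were negative. The median over the 28 genes was 0.021 without control replicate 2, -0.020 without labelled knockout replicate 1 and -0.14 without labelled knockout replicate 2.

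**Figure D1:**
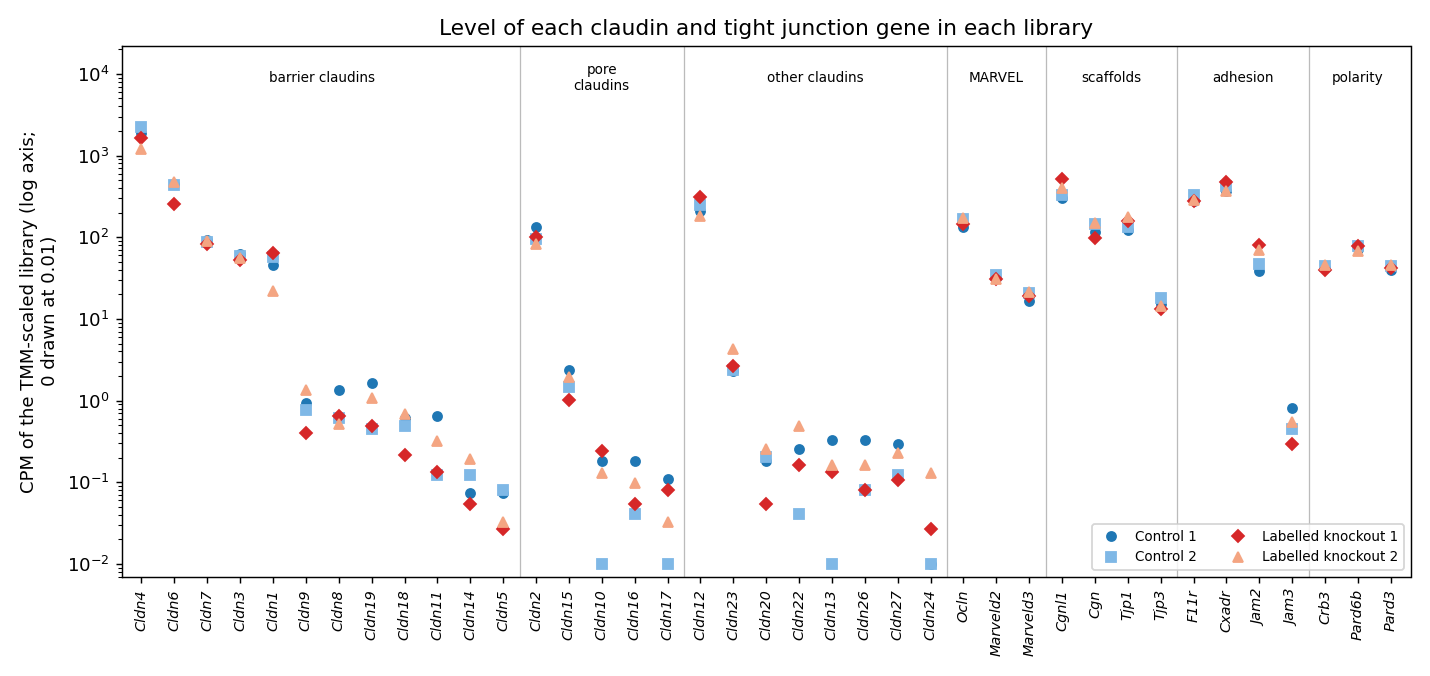
Level of 39 of the 40 genes in each of the 4 libraries, in CPM on a log axis, grouped by role and ordered within a role by mean RPKM, with zeros drawn at the bottom. Cldn4 is the highest gene in every library, and the libraries of both groups lie together for most genes above 10 CPM.

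Cldn4 and Cldn6 made up most of the claudin RNA of these cells. Levels of different genes were compared per transcript length, in the authors' RPKM, which scales reads by transcript length and library size. Cldn4, a barrier claudin of simple epithelia, averaged 724 RPKM over the 4 libraries and ranked 21 among the 22869 symbols. Cldn6, a claudin best known from embryonic epithelia, averaged 202 RPKM and ranked 115. The next were Cldn7 at 50.7, Cldn12 at 47.4, Cldn3 at 34.2, Cldn2 at 25.1 and Cldn1 at 11.1 RPKM. These 7 claudins held between 99.4% and 99.8% of the summed claudin RPKM in each library. Cldn23 and Cldn15 followed at 1.18 and 0.683 RPKM, and the remaining 16 averaged at most 0.450 RPKM.

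The promoters of the abundant claudins Cldn4, Cldn6, Cldn3 and Cldn7 are shown. The repressor Snail, known to silence claudin genes through E-boxes, was measured in the same libraries. The windows run from 250 bases before to 50 bases after the RefSeq start site (assembly GRCm38.p6, whereas the counts were made on mm9), 5′ to 3′ on the gene's strand, with CAGGTG or its reverse complement CACCTG in capitals. The windows of Cldn4 (chr5:134946885-134947184, minus strand), Cldn6 (chr17:23679115-23679414, plus strand), Cldn3 (chr5:134985964-134986263, plus strand) and the later of the Cldn7 start sites (chr11:69965171-69965470, plus strand) read as follows.
Cldn4: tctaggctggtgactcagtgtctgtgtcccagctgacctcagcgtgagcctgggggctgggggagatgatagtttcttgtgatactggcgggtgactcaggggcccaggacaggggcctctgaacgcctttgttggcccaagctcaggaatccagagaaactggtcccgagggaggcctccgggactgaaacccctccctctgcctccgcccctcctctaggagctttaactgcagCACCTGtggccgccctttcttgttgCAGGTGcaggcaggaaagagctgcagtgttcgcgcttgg
Cldn6: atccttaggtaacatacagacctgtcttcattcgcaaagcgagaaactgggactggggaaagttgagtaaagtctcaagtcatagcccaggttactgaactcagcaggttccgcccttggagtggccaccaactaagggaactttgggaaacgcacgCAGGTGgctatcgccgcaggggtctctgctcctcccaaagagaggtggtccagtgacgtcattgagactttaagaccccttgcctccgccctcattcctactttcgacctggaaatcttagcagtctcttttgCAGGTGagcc
Cldn3: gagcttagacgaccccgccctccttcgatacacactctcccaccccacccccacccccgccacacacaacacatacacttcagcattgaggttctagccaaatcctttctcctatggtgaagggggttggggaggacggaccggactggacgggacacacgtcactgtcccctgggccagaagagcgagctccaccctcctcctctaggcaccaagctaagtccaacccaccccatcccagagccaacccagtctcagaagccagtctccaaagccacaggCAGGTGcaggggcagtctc
Cldn7: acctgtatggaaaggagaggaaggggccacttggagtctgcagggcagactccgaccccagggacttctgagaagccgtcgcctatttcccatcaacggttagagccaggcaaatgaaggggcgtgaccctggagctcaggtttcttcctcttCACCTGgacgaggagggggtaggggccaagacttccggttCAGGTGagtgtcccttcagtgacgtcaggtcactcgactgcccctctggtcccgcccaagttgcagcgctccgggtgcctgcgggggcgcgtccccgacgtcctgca

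The other Cldn7 window held no E-box. The windows of Cldn12, Cldn2 and Cldn1, which were also abundant, held none either and are not shown. In Cldn4 the E-boxes begin at -14 and +12, counted from the start site as +1. In Cldn6 they begin at -93 and +41, in Cldn3 at +32, and in Cldn7 at -97 and -57. The sequence CAGGTG, read on both strands, was found in a window of 12 of the 29 members that the promoter table holds, against 22.6% of the 27025 genes in it. The other 8 of the 12 were Cldn14, Crb3, F11r, Marveld2, Ocln, Pard3, Pard6b and Tjp3. For each motif a gene counted if any of its windows matched, and the number of windows per gene was not equalized. The GC box GGGCGG was found in 20 of the 29 members (38.2% of all genes), and TATAAA in 3 (15.7% of all genes). The grainyhead motif AACCGGTT was found in 0 of the 29 and in 0.174% of all genes. So rare a match makes its absence among 29 genes uninformative. These are matches of letters, not measured binding sites, and no window of Jam2 or Cldn9 was in the table.

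Snail itself was near the floor. Snai1 read 0.364 and 0.122 CPM for controls and 0 and 0.0645 CPM for labelled knockouts, where 3 counts correspond to between 0.0804 and 0.122 CPM. Its relative Snai2 stood between 0.677 and 1.21 CPM, and the E-box repressors Zeb1 and Zeb2 between 0.268 and 1.75 CPM. Twist1, another of the regulators listed, was not near the floor. It read 29.5 and 12.9 CPM for controls and 20.1 and 20.2 CPM for labelled knockouts. Grhl2, the grainyhead factor known to raise claudin and E-cadherin genes, read 38.1 and 38.5 CPM for controls and 50.6 and 44.8 CPM for labelled knockouts (log2 fold change 0.31 ± 0.14 SE, edgeR adjusted p = 0.699). Its groups did not overlap, but the difference missed the threshold. Of the 20 regulators of the epithelial junction programme listed, 19 were tested and none passed edgeR over all transcripts. Their median log2 fold change was -0.05 against -0.01 over all transcripts. Besides Grhl2, the regulators with the smallest p were Grhl1, Ovol2 and Cdx2. Grhl1 read 4.15 and 3.36 CPM for controls and 6.94 and 5.74 CPM for labelled knockouts (edgeR adjusted p = 0.510). Ovol2, an epithelial zinc finger repressor, read 3.02 and 4.78 CPM and then 5.81 and 6.58 CPM. Cdx2, the intestinal homeobox factor, read 2.95 and 2.03 CPM and then 1.47 and 1.36 CPM. Neither pair of groups overlapped, and neither gene passed.

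Among barrier claudins, Cldn4 was the 1 with an unadjusted p under 0.05, and it was lower. It read 1883 and 2255 CPM for controls and 1625 and 1195 CPM for labelled knockouts. Both labelled knockout values were below both controls. The log2 fold change was -0.55 with a 95% interval of -1.10 to -0.01 (SE 0.23, n = 2 per group), and the edgeR adjusted p was 0.657. Without labelled knockout replicate 1, so that a single library stood for that group, it was -0.82. Without labelled knockout replicate 2 it was -0.36 and without control replicate 2 it was -0.38. Over the alternatives that kept every library the smallest adjusted p was 0.388.

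Cldn6 divided the libraries labelled knockout from each other. It stood at 447 and 442 CPM in the controls, at 253 CPM in labelled knockout replicate 1 and at 479 CPM in replicate 2. The controls lay within 0.02 of each other on the log2 scale and the labelled knockout libraries 0.92 apart. The log2 fold change was -0.28 ± 0.29 (SE; edgeR adjusted p = 0.932). It was -0.83 without replicate 2 and 0.08 without replicate 1.

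Cldn1, which encodes the claudin of the skin barrier and of many simple epithelia, split them the other way. It stood at 46.0 and 57.9 CPM in the controls, at 63.9 CPM in labelled knockout replicate 1 and at 22.1 CPM in replicate 2. The labelled knockout libraries held both the highest and the lowest level. The log2 fold change was -0.27, and its 95% interval ran from -1.28 to 0.73 (edgeR adjusted p = 0.963). Without replicate 1 it was -1.26 and without replicate 2 it was 0.28.

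Cldn7 and Cldn3 had the smallest standard errors of the tested claudins, 0.14 on the log2 scale for each. Cldn7, a claudin that also lies along the lateral membrane, read 91.3 and 88.3 CPM for controls and 82.7 and 90.1 CPM for labelled knockouts. Its log2 fold change of -0.06 had a 95% interval of -0.39 to 0.28 and the groups overlapped. Cldn3, another barrier claudin, read 61.9 and 59.4 CPM for controls and 52.5 and 55.6 CPM for labelled knockouts. Its groups did not overlap, and its log2 fold change of -0.17 had a 95% interval of -0.48 to 0.15 (edgeR adjusted p = 0.918).

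The other barrier claudins were scarce. Cldn8, a claudin of tight distal epithelia, stood between 0.516 and 1.35 CPM, Cldn9 between 0.402 and 1.35 CPM, Cldn18 between 0.214 and 0.677 CPM and Cldn19 between 0.446 and 1.64 CPM. Their 95% intervals of log2 fold change spanned at least from -1.68 to 0.81, so differences within that range were not resolved by these libraries. Cldn11, Cldn14 and Cldn5, the endothelial claudin, were not tested. Cldn5 had 2 counts in each control and 1 in each labelled knockout. Of the 9 barrier claudins tested, 8 had negative fold changes with a median of -0.28 on the log2 scale, against -0.01 over all transcripts, and none passed edgeR. That median was -0.022 without labelled knockout replicate 1 (6 of 9 negative), -0.63 without labelled knockout replicate 2 and -0.14 without control replicate 1.

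Pore claudins were represented mainly by Cldn2, which forms a channel for cations and water. Cldn2 read 132 and 95.9 CPM for controls and 99.8 and 82.2 CPM for labelled knockouts. The groups overlapped. The log2 fold change was -0.32, and its 95% interval ran from -0.80 to 0.15 (edgeR adjusted p = 0.842). Without labelled knockout replicate 1 it was -0.50. Without labelled knockout replicate 2 it was -0.21, and without control replicates 1 and 2 it was -0.078 and -0.50. Cldn15, a sodium channel claudin of the intestine, stood between 1.02 and 2.37 CPM with overlapping groups. Cldn10, Cldn16 and Cldn17 were not tested and had at most 9 counts in any library.

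Of the claudins in neither class, Cldn12 was the most abundant. It stood at 209 and 245 CPM in the controls, at 313 CPM in labelled knockout replicate 1 and at 182 CPM in replicate 2. The labelled knockout libraries again held both extremes, with a log2 fold change of 0.13 ± 0.26 (SE; edgeR adjusted p = 0.969) that became -0.34 without replicate 1. Cldn23 read 2.33 and 2.39 CPM for controls and 2.65 and 4.23 CPM for labelled knockouts. Its groups did not overlap, but its 95% interval of log2 fold change ran from -0.28 to 1.36. The remaining members of this class, Cldn13, Cldn20, Cldn22, Cldn24, Cldn26 and Cldn27, were not tested. No untested claudin had over 18 counts in any library.

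Summed over the 25 claudins, CPM came to 2882 and 3250 for controls and 2496 and 2119 for labelled knockouts. The groups did not overlap, which with 2 libraries against 2 gives an exact two-sided permutation p of 0.333, the smallest that this design allows. Cldn4 held 66.1% and 70.3% of the summed claudin RPKM in the controls, 68.6% in labelled knockout replicate 1 and 55.9% in replicate 2. Cldn6 held 18.9% and 16.6% in the controls, 12.8% in labelled knockout replicate 1 and 27.0% in replicate 2. The ratio of Cldn4 to Cldn6 RPKM was therefore 3.50 and 4.24 for controls and 5.35 and 2.07 for labelled knockouts, which enclosed the controls from both sides. In bulk RNA, fewer cells of a type and less RNA per cell cannot be told apart.

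**Figure D2:**
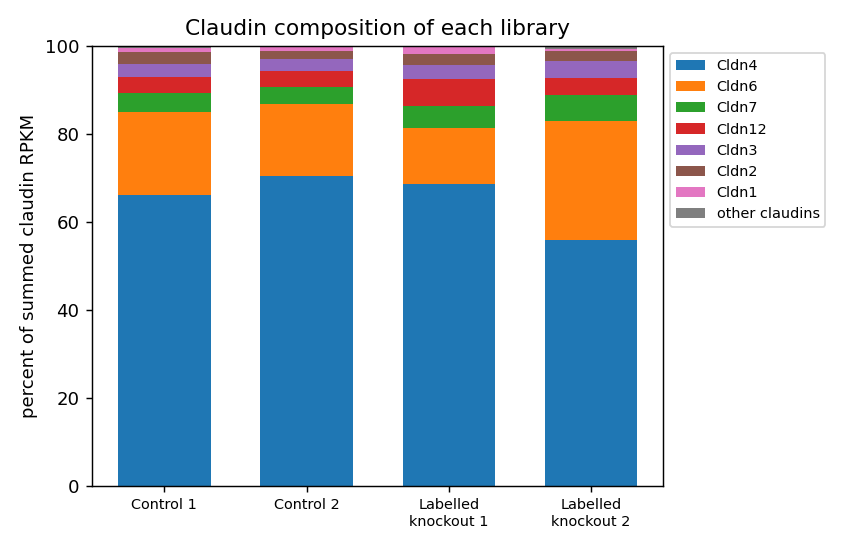
Share of each claudin in the summed claudin RPKM of each library, in percent, with the 18 least abundant claudins pooled. Cldn4 holds between 55.9% and 70.3% and Cldn6 between 12.8% and 27.0%, and labelled knockout replicate 2 has the smallest Cldn4 share and the largest Cldn6 share.

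None of the 3 MARVEL genes passed edgeR. Ocln, which encodes occludin, read 134 and 168 CPM for controls and 143 and 172 CPM for labelled knockouts. Marveld2, which encodes tricellulin of tricellular contacts, stood at 31.8 and 34.5 CPM and at 30.5 and 31.1 CPM. Marveld3 stood at 16.5 and 21.0 CPM and at 18.9 and 21.6 CPM. Their log2 fold changes were 0.06, -0.11 and 0.11, with 95% intervals of -0.37 to 0.49 for Ocln, -0.44 to 0.23 for Marveld2 and -0.33 to 0.55 for Marveld3. The groups overlapped for Ocln and Marveld3, and those of Marveld2 did not.

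Among scaffolds, Cgnl1 and Tjp1 were higher in both labelled knockouts, and neither passed the threshold. Cgnl1, which encodes paracingulin, a relative of cingulin, read 304 and 330 CPM for controls and 523 and 404 CPM for labelled knockouts. Its groups did not overlap, and it was 1.46-fold higher, within a 95% interval from 1.07 to 2.00 (edgeR adjusted p = 0.512). Without labelled knockout replicate 2 the log2 fold change went from 0.55 to 0.71, and without labelled knockout replicate 1 it went to 0.33. Over the alternatives that kept every library the smallest adjusted p was 0.232.

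Tjp1 encodes ZO-1, the scaffold that binds claudin tails. It read 123 and 133 CPM for controls and 157 and 175 CPM for labelled knockouts. Both labelled knockout values were above both controls, a 1.30-fold difference whose 95% interval ran from 1.01 to 1.67 (edgeR adjusted p = 0.626). Its other transcript, NM_001163574, had nearly the same counts and a log2 fold change of 0.38, as the first, so the pair is not independent evidence.

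Tjp3, which encodes ZO-3, read 15.4 and 18.1 CPM for controls and 13.3 and 14.3 CPM for labelled knockouts. The groups of Tjp3 did not overlap (log2 fold change -0.28 ± 0.17 SE, edgeR adjusted p = 0.851). Cgn, which encodes cingulin, read 116 and 145 CPM for controls and 98.7 and 148 CPM for labelled knockouts, with the controls between them. The ratio of Cgnl1 to Cgn RPKM was 1.95 and 1.69 for controls and 3.95 and 2.03 for labelled knockouts.

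Of the adhesion proteins, Jam2 showed the highest log2 fold change of the 28 tested genes. Jam2 encodes JAM-B, a junctional adhesion molecule known mainly from endothelium and Sertoli cells. It stood at 38.9 and 47.7 CPM in the controls (43.3 ± 6.20, SD, n = 2) and at 80.8 and 69.4 CPM in the labelled knockouts (75.1 ± 8.04, SD, n = 2). Both labelled knockout values lay well above both controls. The gene was 1.74-fold higher with a 95% interval of 1.32 to 2.27, an unadjusted p of 0.00186 and an edgeR adjusted p of 0.218, which missed the threshold.

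Jam2 passed with DESeq2 (adjusted p = 0.0193) and with the edgeR exact test (adjusted p = 0.0210), and its adjusted p in 10 further alternatives, which left out no library, lay between 0.112 and 0.478. Leaving out labelled knockout replicate 1 or 2 gave log2 fold changes of 0.66 and 0.88. With each of the 4 libraries left out in turn, the log2 fold change of Jam2 ran from 0.65 to 0.99. The 8 endothelial markers summed to 28.6 and 20.6 CPM for controls and to 13.8 and 17.3 CPM for labelled knockouts. Egfl7 made up most of that sum, and Pecam1, Cdh5 and Emcn stood at 1.02 CPM or less in every library, with Emcn at 0 in control replicate 2. Of the 8, 7 were tested and none passed edgeR. The part of these markers in the Jam2 result was not tested.

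Of the other adhesion genes, F11r and Cxadr were abundant and Jam3 was scarce, and none passed edgeR. F11r, which encodes JAM-A of epithelial junctions, read 281 and 331 CPM for controls and 281 and 288 CPM for labelled knockouts. Cxadr, the coxsackievirus and adenovirus receptor, read 372 and 427 CPM for controls and 469.6 and 369.5 CPM for labelled knockouts, with the controls between them. Per length, F11r averaged 89.8 RPKM and Cxadr 56.0, against 9.35 for Jam2. The RPKM ratio of Jam2 to F11r was 0.0713 and 0.0742 for controls and 0.148 and 0.124 for labelled knockouts. Jam3, which encodes JAM-C, stood at 0.802 CPM or less in every library.

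The log2 fold changes of the polarity genes lay between -0.04 and 0.08, and none passed edgeR. Pard3, which encodes PAR3, read 39.5 and 44.4 CPM for controls and 42.5 and 45.9 CPM for labelled knockouts. Pard6b, which encodes a PAR6 adaptor of atypical protein kinase C, stood at 71.3 and 78.2 CPM and at 77.8 and 67.4 CPM. Crb3, the Crumbs protein of most epithelia, stood at 41.8 and 44.7 CPM and at 39.3 and 46.1 CPM. All 3 overlapped between groups, and their 95% intervals of log2 fold change lay within -0.40 to 0.41.

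**Figure D3:**
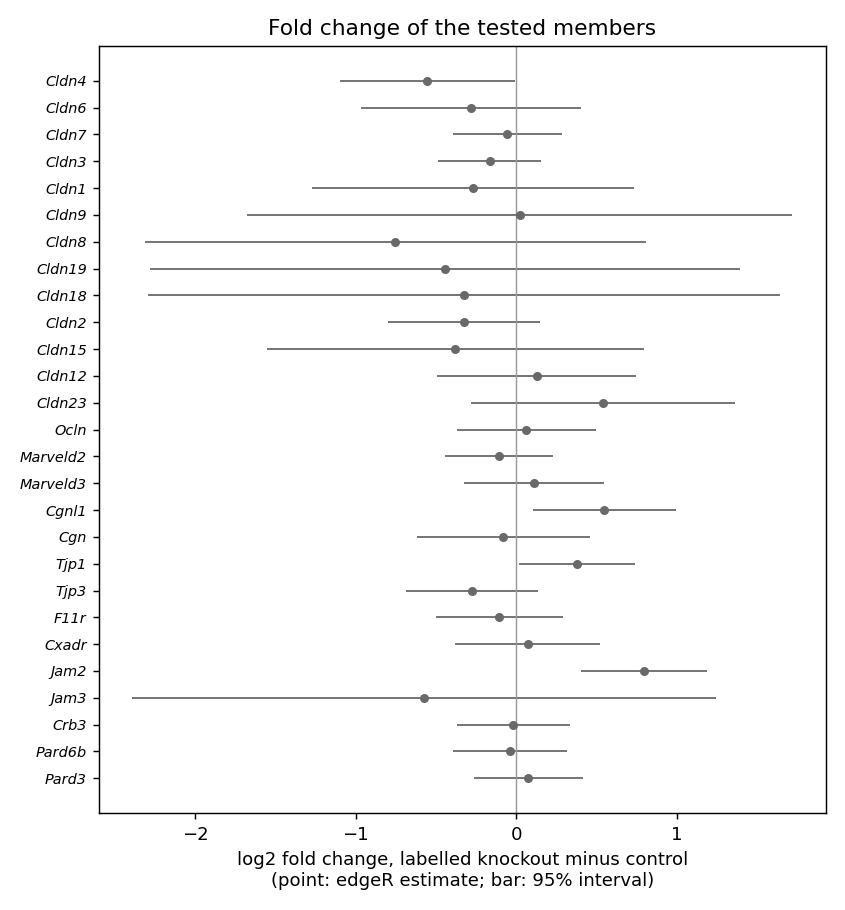
Fold changes of 27 of the 28 tested genes on the log2 scale, labelled knockout minus control, as edgeR estimates with 95% intervals. The intervals of Cldn4, Cgnl1, Tjp1 and Jam2 exclude 0 before adjustment, and none passes after adjustment.

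**Figure D4:**
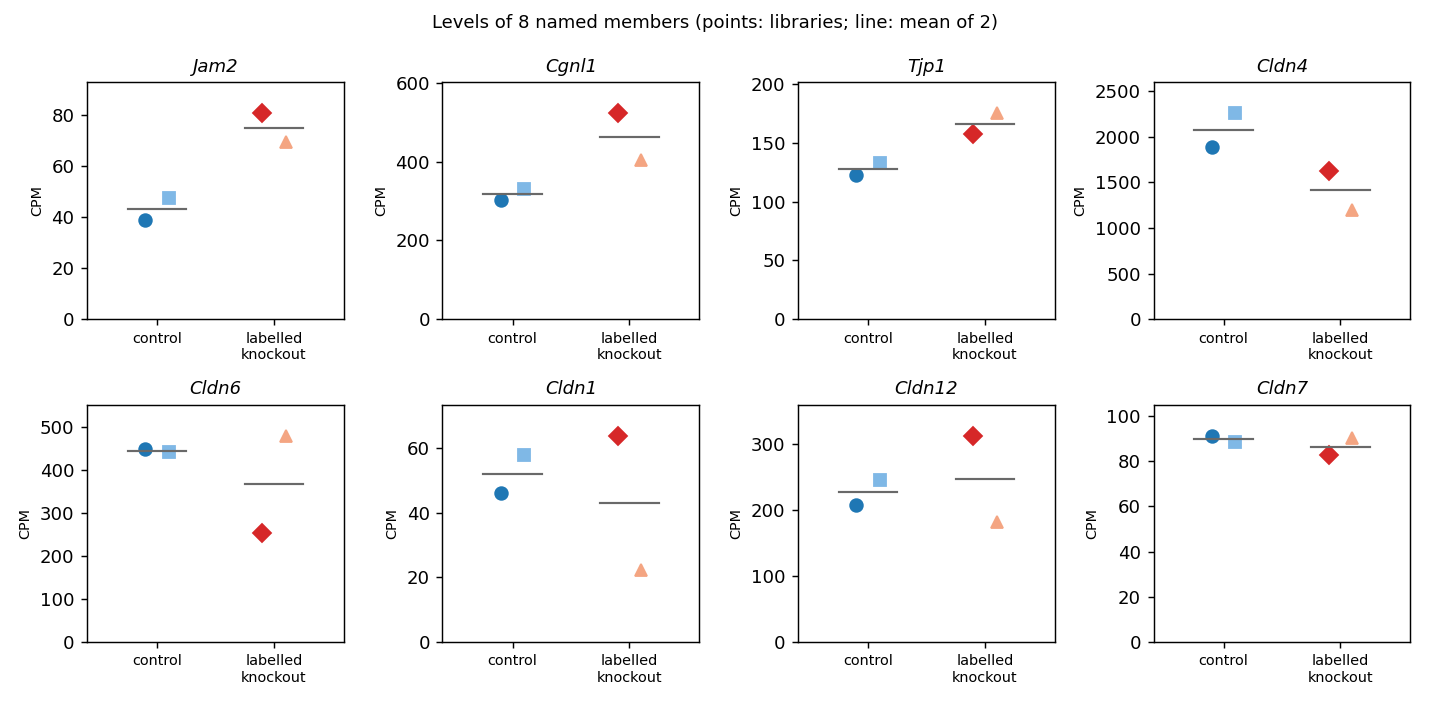
CPM of 8 named genes in each library (circle and square, control replicates 1 and 2; diamond and triangle, labelled knockout replicates 1 and 2), with a line at the mean of each group. Groups are apart for Jam2, Cgnl1, Tjp1 and Cldn4, while the labelled knockout libraries lie on either side of the controls for Cldn6, Cldn1 and Cldn12.

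Junction genes outside the 40 were also examined as a list of 37, all tested, and none passed edgeR over all transcripts. At an unadjusted p under 0.05, 6 were higher and 0 lower, where 4.69% and 2.78% of all transcripts were. Of the 37, 30 had positive fold changes with a median of 0.16 on the log2 scale, against -0.01 over all transcripts, and the median lay between 0.09 and 0.23 across the alternatives that kept every library. The counts were 22 positive and 15 negative without labelled knockout replicate 2, with a median of 0.12, and without control replicate 2 the median was 0.26. Groups did not overlap for 14 higher and 4 lower genes, where 19.1% and 17% of all transcripts were.

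Mpdz had the smallest p of that list. It encodes MUPP1, a PDZ scaffold that binds claudins and JAM proteins, and read 37.3 and 39.2 CPM for controls and 62.6 and 53.2 CPM for labelled knockouts (log2 fold change 0.60 ± 0.15 SE, edgeR adjusted p = 0.303). Prkcz, an atypical protein kinase C of the PAR complex, stood at 13.0 and 14.8 CPM and at 20.5 and 20.5 CPM (edgeR adjusted p = 0.418). Rhoa, the GTPase that sets junctional actomyosin tension, stood at 113 and 125 CPM and at 149.5 and 158 CPM (edgeR adjusted p = 0.640). Ildr1, an angulin of tricellular contacts, stood at 39.3 and 39.7 CPM and at 53.9 and 46.9 CPM (edgeR adjusted p = 0.635). In each of the 4 both labelled knockout values were above both controls. The 4 were chosen for the smallest p in this same comparison, so that separation is not independent evidence.

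Of the 63 transcripts of the 40 genes, those of 1 gene often had near-equal counts and cannot be told apart by them. The transcripts of Cxadr differed in level, at between 47.5 and 67.2 RPKM for NM_001025192 and between 38.6 and 48.6 RPKM for NM_009988. Marveld3 stood between 4.76 and 6.63 RPKM for NM_028584 and between 2.54 and 4.02 RPKM for NM_212447. The 4 transcripts of Pard3 had log2 fold changes between 0.08 and 0.16. The 6 transcripts of Cldn10, an ion channel claudin with kidney forms, stood at 0.203 RPKM or less in every library. The 4 transcripts of Cldn18, a claudin with separate stomach and lung forms, all stood at 0.180 RPKM or less in every library. The transcripts of Cldn19 stood between 0.0805 and 0.274 RPKM for NM_153105 and between 0.0356 and 0.327 RPKM for NM_001038590.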

How the data were processed

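The authors deposited raw counts (whole numbers, not normalized) and RPKM values for 28644 RefSeq transcripts, per the file headers. Per the submitters' processing notes, the build was mm9 and the tools included edgeR. The aligner, the counting program and its use of strand are not given in the sources used here, so reads of antisense or overlapping neighbours cannot be told apart. The authors' RPKM were used for levels between genes, and their library totals differ from those behind CPM.

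Counts were tested here with edgeR 4.0.16 in R 4.3.3: filterByExpr (minimum count 10, minimum total 15), TMM factors, quasi-likelihood F test, and Benjamini-Hochberg adjustment over the 20949 transcripts tested, at 0.05. The procedure was tested on counts simulated from the means, library sizes and common dispersion of these data. It recovered 20% of 100 transcripts changed 2-fold and 86% of 100 changed 4-fold, and it called 5 unchanged transcripts. The series' text gives 2 mice per group and does not say more of cultures, so p-values measure the spread between these 4 samples. Intervals use 2 residual and 5.13 prior degrees of freedom. A count of 0 allows up to 3 counts, and this covers counting error only. Alternatives were other scaling factors and filters, DESeq2 1.42.0, the edgeR exact and robust tests, 1 transcript or summed counts per gene, limma-trend (limma 3.58.1) on log2(RPKM + 1) and log2(RPKM + 0.1) of values of at least 0.5 in 2 libraries, and each library left out.

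Members and lists were chosen with earlier results of these data known. Named genes were Hhex, the members, isoforms of Cldn10, Cldn18, Cldn19, Tjp1 and Pard3, and from each other list up to 4 genes with the smallest p. Each marker list is given with its sum, and most with examples. Snai1, Snai2, Zeb1, Zeb2, Xist, Krt8, Krt18, Epcam, Cdh1, Pecam1, Cdh5, Emcn, Amy2a5 and the isoforms of Cxadr and Marveld3 were added after their values were seen. Twist1, Cd14, Mbp and Apob were added in the same way. Promoter windows and gene order came from RefSeq tables of GRCm38.p6, in which 38 of 40 members matched by symbol (not Cldn26 and Cldn27). Of the scaffold genes, 1 is counted in the totals and is not reported here by name.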

Additional observations from a re-analysis of the deposited data

How the results depend on the processing

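With library totals or upper-quartile factors in place of TMM, 5 of all transcripts passed, 0 higher and 5 lower, against 37 with TMM, 27 higher and 10 lower. The count was 79 with no filter, 303 with DESeq2, 270 with the edgeR exact test, 84 with the robust fit, 2 with 1 transcript per gene, 5 with counts summed per symbol, 159 and 138 with limma-trend on log2(RPKM + 1) and log2(RPKM + 0.1), and 4 on log2(RPKM + 1) with no filter. With each library left out it ran from 13 to 1735. DESeq2 called 1 of the 40 tight junction genes, where it called 303 of 28199 transcripts. The edgeR exact test called 1 of 28, where it called 270 of 20949 transcripts. The cause of these differences was not tested. Where 1 library stands for a group, it is assumed to vary like the other group, so only fold changes are given for single genes in such fits. Without each library in turn the log2 fold change of Hhex ran from 0.13 to 0.84.

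Of the 28 genes, 11 kept their sign under every alternative run: Cgnl1, Cldn2, Cldn23, Cldn3, Cldn4, Cldn8, Jam2, Jam3, Marveld2, Tjp1 and Tjp3. On the log2 scale, limma-trend on log2(RPKM + 1), log2(RPKM + 0.1) and log2(RPKM + 1) with no filter turned Cldn7 to 0.012, 0.012 and 0.012, Crb3 to 0.046, 0.048 and 0.046, and Pard6b to 0.024, 0.026 and 0.024. Library totals turned Cldn9 to -0.037, Cxadr to -0.0054 and Ocln to -0.0012, upper-quartile factors turned Cldn9 to -0.017, and 1 transcript per gene turned it to -0.0056. Leaving out 1 library turned 16 genes, with ranges that include -0.42 to 0.16 for Cgn, -1.26 to 0.28 for Cldn1, -0.34 to 0.45 for Cldn12, -0.93 to 0.0083 for Cldn15, -1.37 to 0.26 for Cldn18, -1.14 to 0.78 for Cldn19, -0.83 to 0.082 for Cldn6, -1.11 to 0.63 for Cldn9, -0.15 to 0.067 for Crb3, -0.14 to 0.22 for Cxadr, -0.22 to 0.053 for F11r, -0.060 to 0.33 for Marveld3, -0.098 to 0.27 for Ocln, -0.0093 to 0.20 for Pard3 and -0.17 to 0.064 for Pard6b. The share of Cldn6 in summed claudin CPM, in place of RPKM, was 15.5% and 13.6% in control replicates 1 and 2. No scaling moved the median of all transcripts by over 0.1 on the log2 scale. No paired analysis was possible because the labels give no replicate numbers shared between groups. Genes below about 1 CPM rest on low counts.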

Other observations

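Claudin genes that lie next to each other differed in level, from 3.97-fold to 448-fold over the adjacent pairs. In the RefSeq gene order of GRCm38.p6, Cldn6 and Cldn9 are neighbours on chromosome 17 with 0 protein-coding genes between them, and Cldn6 averaged 448-fold more RPKM than Cldn9. Cldn1 and Cldn16 are neighbours on chromosome 16, with a 190-fold difference that rests on 1 to 5 counts of Cldn16 per library. Cldn8 and Cldn17, also neighbours on chromosome 16, differed 6.97-fold, and Cldn22 and Cldn24, neighbours on chromosome 8, differed 3.97-fold. Cldn17 had at most 3 counts in any library and Cldn24 at most 4. Cldn3 and Cldn4 are neighbours on chromosome 5, where Cldn4 averaged 21.2-fold more than Cldn3, and Cldn13 lies with 1 protein-coding gene between it and Cldn4 at 0.107 RPKM. Ocln and Marveld2, neighbours on chromosome 13, differed 4.64-fold.

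The scarce Cldn9, with 15 to 42 counts per library, had its lowest and highest CPM in the same libraries as Cldn6. So did Cgn, Crb3 and Cldn18, so the pattern was not particular to this pair. Cldn9 stood at 0.947 and 0.770 CPM in the controls, 0.402 CPM in labelled knockout replicate 1 and 1.35 CPM in replicate 2, and its count was between 0.159% and 0.283% of that of Cldn6.

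Among the 28 tested genes, labelled knockout replicate 1 was the lowest library for 11 and labelled knockout replicate 2 the highest for 10. Over all transcripts, replicate 1 was the lowest for 28.5% and replicate 2 the highest for 23.1%. Control replicate 2 was the lowest library for 1 of the 28, against 17.0% of all transcripts.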
